A study of Mus musculus with 9 samples.

Results

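Scavenger receptors are cell surface and lysosomal proteins that bind modified lipoproteins, bacterial surface components, dying cells and other polyanionic ligands. They do not form a family by descent and are grouped into classes by their structure. Macrophages are the cell type best known for them. They use them to take up oxidized lipoprotein and particles, which can turn a macrophage into a lipid-laden foam cell, and some members also bind lipopolysaccharide (LPS), the outer membrane component of Gram-negative bacteria. The genes examined were taken from the expression table by name. They were the class A receptors Msr1 and Marco, the class B receptors Cd36, Scarb1 and Scarb2, the lectin-type receptors Olr1 and Mrc1, and the class H receptor Stab1. These are 8 of the 54532 genes in the expression table, and 4 of them (Msr1, Cd36, Scarb1 and Scarb2) were among the 11585 genes that passed the filter on low values.

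Expression was measured by RNA-seq of poly(A) RNA in RAW264.7 cells, a transformed mouse macrophage-like line of ascites origin, labelled wild type. There were 3 groups of 3 libraries. Control cells were untreated, LPS cells received 1 μg/ml LPS for 6 h, and LPS + G-CDs cells received the same LPS together with G-CDs at 400 μg/ml for 6 h. G-CDs are carbon dots, carbon nanoparticles made here from the licorice plant Glycyrrhiza, and the study asked whether they limit the inflammatory and oxidative response. No group received G-CDs without LPS. The submitters' treatment label for this group lists LPS alone, with G-CDs in its sample titles, and no source used here says whether the 3 libraries of a group were separate cultures, so the p-values measure the spread between libraries of 1 cell line, which may be technical.

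The libraries held 14752400 to 17312255 reads on genes. Values are FPKM (reads scaled to gene length and library size). The length used is that of all annotated exons of a gene joined, which can exceed that of any transcript. For Scarb1 it is 8500 bases against 3093 in the longest transcript, and for Msr1 6344 against 3636. For Scarb2 it is 6285 against 4698, and for Cd36 3590 against 3399. Comparisons of level between genes depend on these lengths. Replicates correlated at 0.987 to 0.988 among LPS libraries, 0.94 to 0.969 among control libraries and 0.935 to 0.975 among LPS + G-CDs libraries on the log2(FPKM + 1) scale. Among the longest of 5 equal classes of genes by length, the median deviation from the group mean was 0.26 log2 units in LPS + G-CDs replicate 1 and -0.26 in replicate 3, against 0.11, 0.13 and -0.22 in control replicates 1 to 3 and -0.03 to 0.02 in the LPS libraries. Of 10 macrophage markers, 9 had a mean FPKM of at least 1 in every group, and Mertk had 0 reads in all 9 libraries. The macrophage markers summed to 2655 to 3655 FPKM in control, 3854 to 4072 in LPS and 3233 to 5335 in LPS + G-CDs libraries. Markers of dendritic cells, neutrophils, lymphocytes, and fibroblasts and epithelium summed to at most 1.77, 2.15, 0.52 and 0.0574 FPKM in any library. In bulk RNA, fewer cells of a type and less RNA per cell cannot be told apart.

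Promoter sequence from RefSeq (GRCm38.p6), 250 bases before to 50 after the start RefSeq gives, was found for 6 of the 8 genes, and Msr1 and Scarb1 were not among them. Of these, the promoters of 4 genes whose values or reads differed most between control and LPS cells are shown, read on the strand of the gene. Capitals mark matches, on either strand, to TGANTCA (the AP-1 site), TGACNNNGC (the core of the antioxidant response element) and GGG and CC with 5 bases between them (the NF-kB site), motifs of factors that act in LPS-treated and oxidatively stressed macrophages. The AP-1 and antioxidant response element letters can overlap each other.
Cd36 (chr5:17835847-17836146, minus strand): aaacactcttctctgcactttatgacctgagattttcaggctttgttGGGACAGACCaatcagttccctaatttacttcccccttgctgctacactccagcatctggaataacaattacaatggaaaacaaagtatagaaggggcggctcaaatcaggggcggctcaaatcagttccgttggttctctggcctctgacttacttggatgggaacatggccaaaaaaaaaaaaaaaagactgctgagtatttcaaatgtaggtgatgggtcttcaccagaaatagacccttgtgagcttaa
Scarb2 (chr5:92505608-92505907, minus strand): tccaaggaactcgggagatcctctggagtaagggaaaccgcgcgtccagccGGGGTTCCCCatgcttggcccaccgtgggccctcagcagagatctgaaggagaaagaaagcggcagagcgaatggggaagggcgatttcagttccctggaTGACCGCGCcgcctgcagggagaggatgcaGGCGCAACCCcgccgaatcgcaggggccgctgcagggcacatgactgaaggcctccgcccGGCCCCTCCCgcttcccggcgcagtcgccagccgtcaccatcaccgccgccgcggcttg
Mrc1 (chr2:14229164-14229463, plus strand): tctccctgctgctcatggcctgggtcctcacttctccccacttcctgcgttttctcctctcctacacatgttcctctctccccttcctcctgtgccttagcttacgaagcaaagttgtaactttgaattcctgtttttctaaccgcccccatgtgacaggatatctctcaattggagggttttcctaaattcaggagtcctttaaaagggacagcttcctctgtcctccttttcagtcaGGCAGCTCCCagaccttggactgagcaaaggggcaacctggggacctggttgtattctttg
Olr1 (chr6:129507116-129507415, minus strand): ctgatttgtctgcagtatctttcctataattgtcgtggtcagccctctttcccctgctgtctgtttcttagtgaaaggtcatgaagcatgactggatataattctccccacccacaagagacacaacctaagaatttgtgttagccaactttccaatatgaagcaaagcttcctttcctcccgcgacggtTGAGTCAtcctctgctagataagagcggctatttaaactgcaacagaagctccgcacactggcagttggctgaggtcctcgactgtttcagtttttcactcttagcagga
Olr1 alone of the 6 held an AP-1 match, which 7.81% of 32851 promoters of this length hold. The antioxidant response element core was found in Scarb2 alone, against 12.4% of all promoters. NF-kB letters were present in Cd36, Scarb2, Mrc1 and Marco, against 50.8% of all promoters. GAGGAA, the core bound by the macrophage factor PU.1, was present in Marco, Mrc1, Olr1 and Stab1, against 28.3% of all promoters, and is not in capitals. The Cd36 and Scarb2 sequences lie within the spans of their genes, whose 6 and 2 annotated transcripts begin at more than 1 place, so the gene-level values pool transcripts from other starts. The last 40 bases of the Cd36 sequence were in 0 of the GENCODE transcripts of Cd36 as 1 unbroken stretch. A first exon that ends inside those bases would give the same count. Whether the RefSeq start used for it is a start of those transcripts was therefore not tested. These matches are descriptions of the letters in the window.

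The question of the first comparison is how LPS alone changed the expression of scavenger receptors. LPS raised Msr1 and Cd36 and lowered Scarb1 and Scarb2. All 4 tested receptors therefore passed the threshold (limma, Benjamini-Hochberg adjusted p under 0.05), 2 in each direction. This compares with 31.3% of all 11585 tested genes (15.8% higher and 15.6% lower). Cd36 passed the filter on low values only through the treated groups, where it is high, so the count of called receptors is no support for a change of the group as a whole. The members' median log2 difference was 0.33, with opposite signs among them, and the median over all tested genes was 0.02.

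Msr1 encodes the trimeric class A macrophage scavenger receptor (SR-A, CD204), which has a collagen-like stalk and takes up acetylated and oxidized low-density lipoprotein. The gene lies on chromosome 8 from 39581685 to 39642673, minus strand, of GRCm38. Its FPKM was 3.57, 5.00 and 5.38 in the control libraries, 50.2, 53.9 and 52.4 in the LPS libraries, and 27.5, 26.1 and 26.1 in the LPS + G-CDs libraries. The 3 groups did not overlap, with the LPS + G-CDs libraries between the others. The mean rose from 4.65 ± 0.954 FPKM in control cells to 52.2 ± 1.86 with LPS (SD, n = 3), an 11.2-fold difference of means. On the log2(FPKM + 1) scale the difference was 3.25 (standard error 0.14, 95% confidence interval 2.94 to 3.56, limma adjusted p = 4e-07).

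Cd36 encodes a class B receptor that binds oxidized lipoprotein and carries long-chain fatty acids into the cell. It lies on chromosome 5 from 17781690 to 17888801, minus strand. Its FPKM was 0.772, 0.900 and 0.704 in control, 2.70, 3.13 and 2.91 in LPS, and 3.89, 3.91 and 2.72 in LPS + G-CDs libraries. All LPS libraries lay above all control libraries. LPS raised the mean from 0.792 ± 0.0994 to 2.91 ± 0.213 FPKM (SD, n = 3), a log2 difference of 1.13 (standard error 0.14, 95% confidence interval 0.81 to 1.45, limma adjusted p = 0.00036). These levels rest on 45 to 55 reads per control library and 134 to 155 per LPS library, and the difference was 1.76 with a pseudocount of 0.1 in place of 1 and 1.88 with voom on the reads.

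Scarb1 encodes SR-BI, the class B receptor for high-density lipoprotein, through which cells exchange cholesterol esters and free cholesterol. It lies on chromosome 5 from 125277087 to 125341094, minus strand. Its FPKM was 12.8, 17.4 and 17.5 in control, 10.9, 10.7 and 11.7 in LPS, and 9.78, 9.64 and 8.99 in LPS + G-CDs libraries. The lowest control library, at 12.8, was above the highest LPS library, at 11.7. LPS lowered the mean of 15.9 ± 2.67 FPKM to 11.1 ± 0.514 (SD, n = 3), with a log2 difference of -0.47 (standard error 0.13, 95% confidence interval -0.77 to -0.17, limma adjusted p = 0.027). The call rested on single libraries. The limma adjusted p was 0.084 without control replicate 2, 0.083 without control replicate 3, 0.088, 0.095 and 0.064 without LPS replicate 1, 2 or 3, and 0.051 without LPS + G-CDs replicate 2, with differences of -0.50 to -0.40 in these 6 analyses, and with TPM the difference was -0.75.

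Scarb2 encodes LIMP-2, a class B protein of the lysosomal membrane. It lies on chromosome 5 from 92441314 to 92506833, minus strand, and its promoter above holds the antioxidant response element letters. Its FPKM was 8.30, 7.37 and 6.60 in control, 3.55, 3.01 and 3.27 in LPS, and 3.99, 3.90 and 4.77 in LPS + G-CDs libraries. The groups did not overlap, with control highest and LPS lowest. LPS lowered the mean of 7.42 ± 0.848 FPKM to 3.28 ± 0.269 (SD, n = 3), with a log2 difference of -0.98 (standard error 0.12, 95% confidence interval -1.26 to -0.70, limma adjusted p = 0.00039). With TPM the difference was -1.36.

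**Figure D1:**
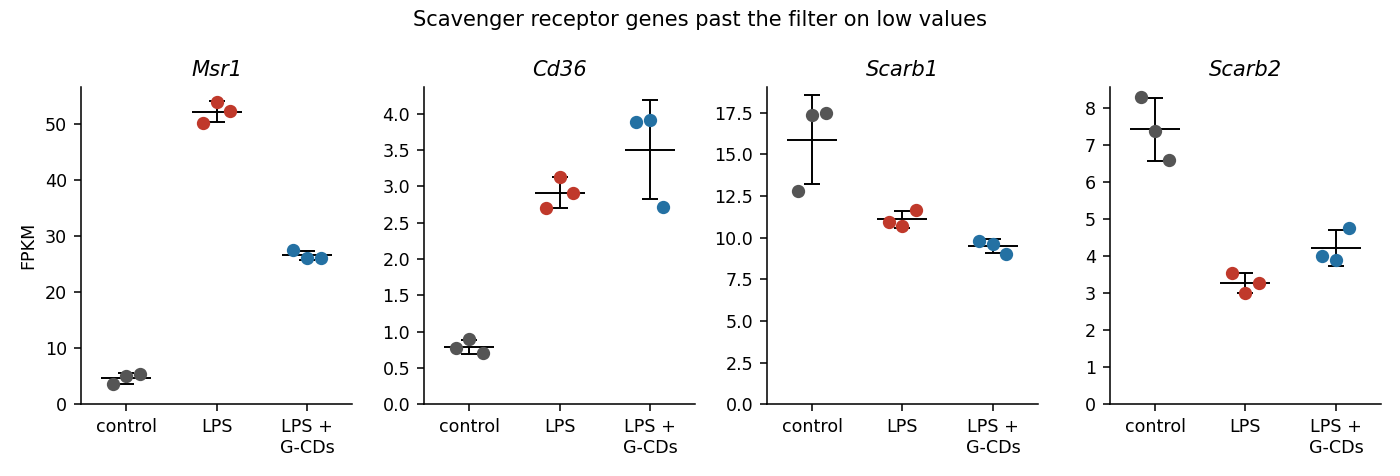
FPKM (linear axis from 0, a separate scale for each gene) of Msr1, Cd36, Scarb1 and Scarb2 in the control, LPS and LPS + G-CDs groups, with 1 point per library and the mean ± SD of 3 libraries in black. Msr1 lies near 4.65 FPKM in control, 52.2 in LPS and 26.6 in LPS + G-CDs cells, while Cd36 is above control in both treated groups and Scarb1 and Scarb2 are below it.

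The second comparison asks what G-CDs changed in LPS-treated cells. G-CDs lowered Msr1 and no other tested scavenger receptor passed the threshold, so 1 of 4 was called, against 0.492% of all tested genes (57 genes, with 0.25% higher and 0.242% lower). Its mean was 52.2 ± 1.86 FPKM with LPS and 26.6 ± 0.797 with LPS + G-CDs (SD, n = 3), a ratio of 0.509. The log2 difference was -0.95 (standard error 0.14, 95% confidence interval -1.26 to -0.64, limma adjusted p = 0.025), and 3 of 3 LPS + G-CDs libraries were below all LPS libraries. Msr1 was still 21.9 FPKM above control with G-CDs, which is 46.1% of the 47.5 FPKM by which LPS alone raised it.

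The call on Msr1 was close to the threshold, although the difference was between -1.13 and -0.83 in all 20 alternative analyses and 11 of them called it. The limma adjusted p was 0.06 without control replicate 2, 0.15, 0.18 and 0.14 without LPS replicate 1, 2 or 3, 0.17 and 0.074 without LPS + G-CDs replicate 2 or 3, 0.055 with a pseudocount of 0.1, 0.059 with TPM (values rescaled to 1 sum in every library) and 0.054 after removal of the gene-length trend.

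Scarb2 was higher in all 3 LPS + G-CDs libraries than in any LPS library, with means of 4.22 ± 0.477 and 3.28 ± 0.269 FPKM (SD, n = 3). The log2 difference of 0.29 (95% confidence interval 0.01 to 0.57) had a limma p of 0.046 before and 0.32 after adjustment, so it was not called. Scarb1 had 9.47 ± 0.419 FPKM with G-CDs against 11.1 ± 0.514 without (SD, n = 3), and its libraries did not overlap either. Its log2 difference was -0.21 (95% confidence interval -0.51 to 0.09, limma adjusted p = 0.39). After removal of the gene-length trend this became 0.0067, and Scarb1, with 8500 bases of gene length, is the longest of the 4. Cd36 differed by 0.19 (95% confidence interval -0.13 to 0.51, limma adjusted p = 0.43), and its LPS + G-CDs replicate 3 lay within the LPS range. The difference was 0.33 without that library (limma adjusted p = 0.57) and 0.13 without either LPS + G-CDs replicate 1 or 2. With TPM the differences were 0.18 for Scarb2, -0.38 for Scarb1 and 0.078 for Cd36. For these 3 receptors the intervals allow changes in either direction or, for Scarb2, a rise of up to 0.57.

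Compared with untreated cells, LPS + G-CDs cells had higher Msr1 and Cd36 and lower Scarb1 and Scarb2. All 4 tested receptors passed the threshold, against 25.3% of all tested genes. Here too Cd36 passed the filter on low values only through the treated groups, so this count is no support for a change of the group as a whole. The comparison shares its LPS + G-CDs libraries with the second and its control libraries with the first, so it is not a separate line of evidence. On the log2(FPKM + 1) scale the differences were 2.30 for Msr1 (limma adjusted p = 4.1e-06), 1.32 for Cd36 (0.00017), -0.68 for Scarb1 (0.0057) and -0.69 for Scarb2 (0.0034). The ratio of mean FPKM was 5.71 for Msr1, 4.43 for Cd36, 0.597 for Scarb1 and 0.568 for Scarb2. All 4 kept these calls in every alternative in which they were tested, but TPM moved Scarb1 to -1.14 and Scarb2 to -1.18, and voom on the reads moved Cd36 to 2.13.

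**Figure D2:**
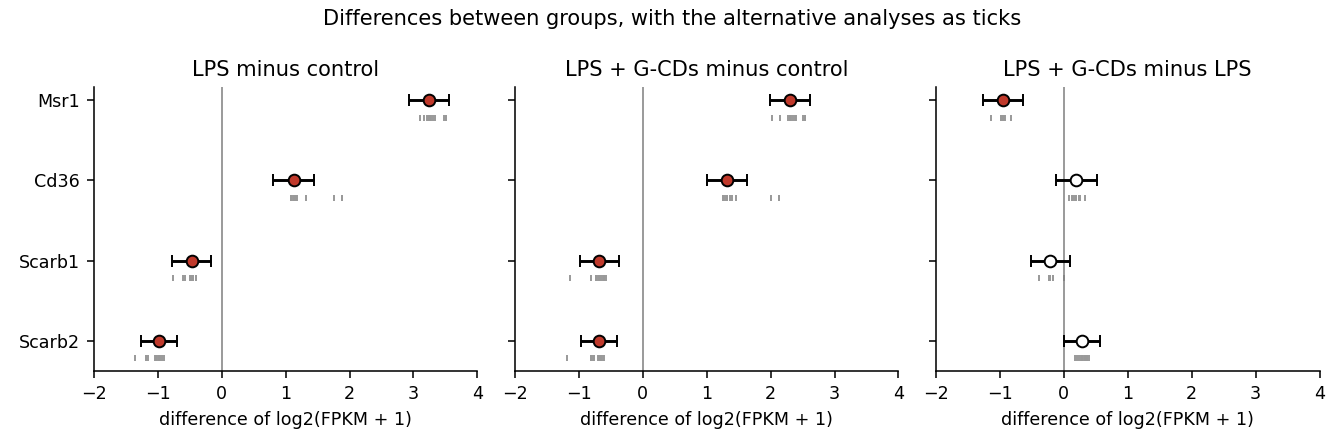
Difference of log2(FPKM + 1) between groups for the 4 tested receptors, with 95% confidence intervals, filled points for a limma adjusted p under 0.05 and grey ticks below each point for the alternative analyses, some of which use another log scale (a pseudocount of 0.1 or log2 reads scaled to library size). Msr1 has the largest values, 3.25, 2.30 and -0.95, and it alone is filled in the comparison of LPS + G-CDs with LPS.

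The order of the receptors by FPKM differed between groups. Order, shares and ratios between genes rest on the gene lengths given above. Transcript lengths in their place could change the order and shares within a group. In control cells the FPKM fell from Scarb1 through Scarb2, Msr1 and Cd36 to Stab1 without overlap between neighbours. In LPS cells Msr1 was highest, followed by Scarb1, and then by Scarb2 and Cd36, whose libraries overlapped. In LPS + G-CDs cells the first 4 places were the same, with Scarb2 and Cd36 again overlapping. The 8 genes together summed to 25.8 to 30.9 FPKM in control, 68.1 to 71.1 in LPS and 42.9 to 45.9 in LPS + G-CDs libraries. Msr1 made up 13.9 to 17.7% of this sum in control, 73.8 to 75.8% in LPS and 59.2 to 60.9% in LPS + G-CDs libraries. Scarb1 made up 49.7 to 57.5%, 15.01 to 16.45% and 20.96 to 21.89%. The ratio of Msr1 to Scarb1 within a library, which no single scaling factor per library can change, was 0.279 to 0.308 in control, 4.49 to 5.05 in LPS and 2.70 to 2.91 in LPS + G-CDs libraries, without overlap between groups.

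**Figure D3:**
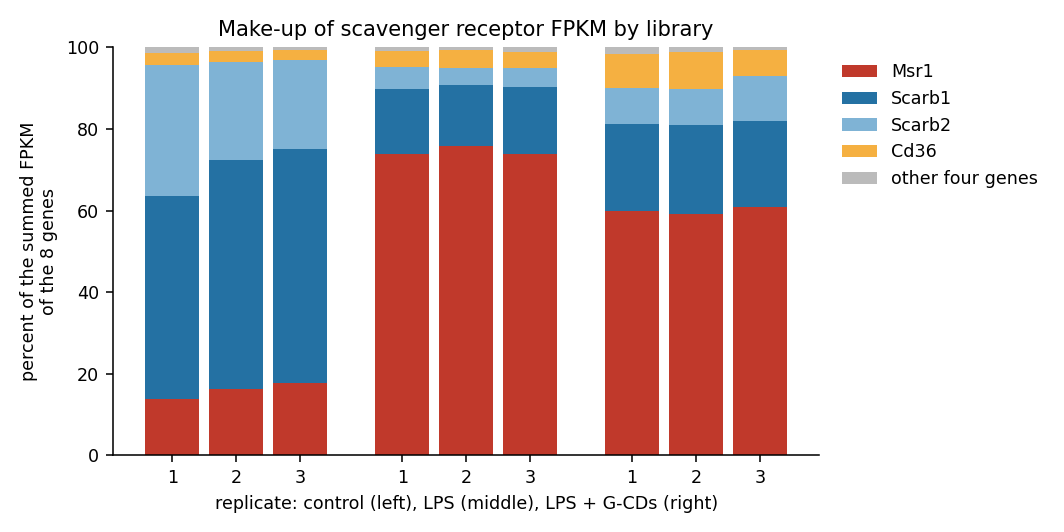
Stacked bars of each gene's percent of the summed FPKM of the 8 scavenger receptor genes, 1 bar per library, with replicates 1 to 3 of control, LPS and LPS + G-CDs from left to right. Msr1 takes 13.9 to 17.7% of the bar in control, 73.8 to 75.8% in LPS and 59.2 to 60.9% in LPS + G-CDs libraries.

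The remaining 4 receptors had few reads and did not enter the main test. Marco, the class A receptor of marginal zone and alveolar macrophages, had 0 reads in all 9 libraries, and a count of 0 allows up to 3 reads or 0.0831 to 0.113 FPKM by counting error alone. The other 3 were tested in the planned limma analysis without a filter and in an additional analysis chosen after seeing the data, limma's voom on the reads of the 16476 genes with at least 3 reads in at least 3 libraries. The voom analysis called 25.5% of these genes between LPS and control and 0.291% between LPS + G-CDs and LPS. Mrc1 and Olr1 entered this set only with the treated libraries counted, where their reads are higher. Their voom calls between LPS and control were therefore favoured by the filter.

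Mrc1 encodes the mannose receptor CD206, a lectin commonly used as a marker of alternative activation. It had 8, 4 and 1 reads in the control libraries, 18, 16 and 19 in the LPS libraries and 14, 5 and 3 in the LPS + G-CDs libraries. LPS libraries were above all others. Its mean was 0.197 ± 0.0132 FPKM in LPS cells (SD, n = 3), far below the tested receptors. The voom log2 difference was 2.57 between LPS and control (standard error 0.67, adjusted p = 0.016) and -1.57 between LPS + G-CDs and LPS (standard error 0.59, adjusted p = 0.34). Without a filter, on log2(FPKM + 1), the limma adjusted p values were 0.019 and 0.37.

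Olr1 encodes LOX-1, a lectin-like receptor for oxidized low-density lipoprotein, and its promoter above carries the AP-1 letters. It had 0, 5 and 0 reads in control, 14, 5 and 19 in LPS and 13, 13 and 1 in LPS + G-CDs libraries. LPS and control libraries met at 5 reads. The voom log2 difference between LPS and control was 3.77 (standard error 1.26, adjusted p = 0.0495), a value that depends on the offset voom adds to counts of 0, and with all genes above 0 tested on log2(FPKM + 1) the limma adjusted p was 0.13. Between LPS + G-CDs and LPS the difference was -0.90 (voom adjusted p = 0.58).

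Stab1 encodes stabilin-1, a receptor of tissue macrophages and sinusoidal endothelium that clears apoptotic cells and acetylated lipoprotein. It had 50, 21 and 41 reads in control, 20, 15 and 23 in LPS and 46, 47 and 35 in LPS + G-CDs libraries. All LPS + G-CDs libraries were above all LPS libraries, with means of 0.275 ± 0.0335 and 0.133 ± 0.0249 FPKM (SD, n = 3). The voom log2 difference of 1.04 (standard error 0.37) had a p of 0.016 before and 0.33 after adjustment, and without a filter on log2(FPKM + 1) the limma adjusted p was 0.38. Stab1 shares 112 exon bases with Nt5dc2 on the opposite strand, and no source used here says whether strand was used in counting. At even coverage those bases would hold 30.1 to 41.1 Nt5dc2 reads per control library, 9.98 to 13.0 per LPS library and 13.3 to 16.1 per LPS + G-CDs library, so reads of the 2 genes cannot be told apart. Sinusoidal endothelial markers summed to 1.45 to 1.88 FPKM in control, 9.35 to 10.1 in LPS and 8.22 to 8.94 in LPS + G-CDs libraries. Of these 8 markers only Fcgr2b, which macrophages also express, passed the filter on low values. It had 0.917, 8.75 and 7.603 FPKM on average, and its part in the Stab1 values was not tested.

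**Figure D4:**
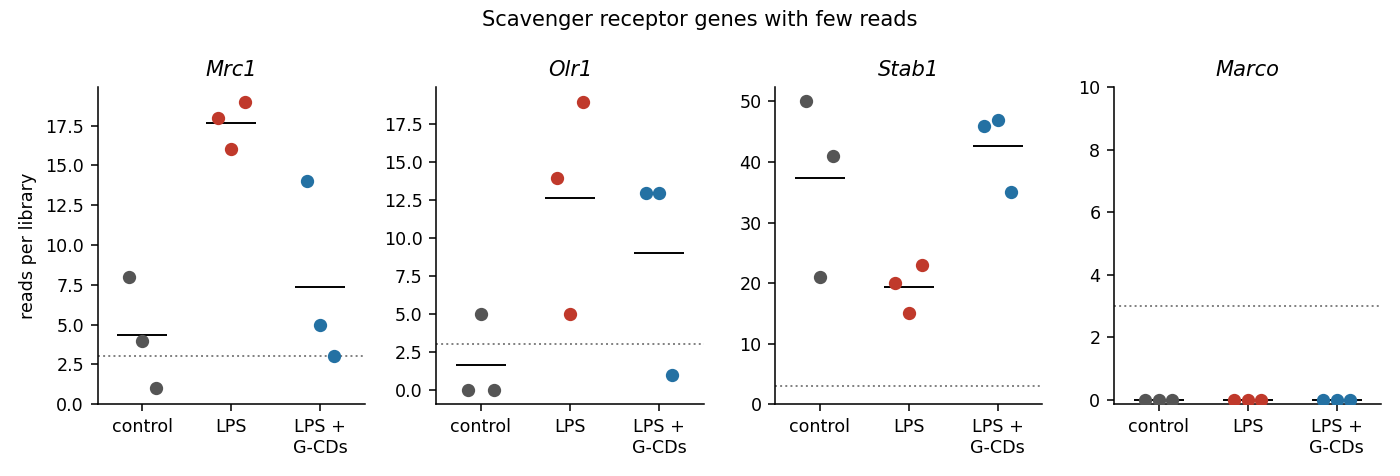
Reads per library (linear axis, a separate scale for each gene) of Mrc1, Olr1, Stab1 and Marco in the 3 groups, with 1 point per library, the mean as a black bar and a dotted line at the floor of 3 reads. Mrc1 is highest in the LPS libraries (16 to 19 reads), Stab1 runs from 15 to 23 reads there and from 35 to 47 with G-CDs, Olr1 spreads from 0 to 19 reads and Marco is at 0 throughout.

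The tested genes whose profile over the 9 libraries was most like that of a receptor were found by the mean absolute difference of log2(FPKM + 1) after centring each gene on its own mean. For Msr1 these were Egr1, an immediate-early transcription factor (0.12), Lix1 (0.18) and Cd83, a surface marker of activated antigen-presenting cells (0.19). Egr1 had means of 1.17, 20.2 and 11.4 FPKM in control, LPS and LPS + G-CDs cells. For Cd36 they were Pvr, C9orf72 and Ifi203-ps (0.093 to 0.11). For Scarb1 they were Rcsd1, Bag4 and Olfm1 (0.043 to 0.070), and for Scarb2 they were Pkn3, Ppp3ca and Phka2 (0.056 to 0.076). The likeness is a description over these libraries, and the differences are smaller for receptors that themselves varied less.

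Other genes of scavenging and lipid handling were taken from lists. None of the listed genes other than Msr1 passed the threshold between LPS + G-CDs and LPS, so the counts that follow are for LPS against control, where 31.3% of all tested genes were called. A list's count near that share is no result about the list. Among 16 other scavenger receptor genes, 4 were tested, and 1 rose and 0 fell, a count near the share over all tested genes. The gene was Cxcl16, a transmembrane chemokine that binds oxidized lipoprotein, which went from 8.14 to 29.7 FPKM (log2 difference 1.77). The median of the 4 was 0.28, against 0.02 over all tested genes.

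Of 8 lipoprotein receptor genes, 7 were tested, 2 rose and 1 fell, beside 31.3% called over all tested genes. Lrp10 rose by 0.75 on the log2 scale, while the sorting receptor Sort1 fell by 0.80. The median over the 7 was -0.54, against 0.02 over all tested genes.

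Of 13 genes that handle lipid after uptake, 11 were tested, 2 rose and 4 fell, beside 31.3% called over all tested genes, and their median was -0.01. Abcg1, the exporter that passes cholesterol to high-density lipoprotein, went from 15.7 to 2.26 FPKM (log2 difference -2.35). Lpl, lipoprotein lipase, rose from 26.6 to 59.8 FPKM (1.16). Lipa, lysosomal acid lipase, went from 91.8 to 42.5 FPKM (-1.09).

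Among 8 tested genes linked to LIMP-2 and the lysosomal membrane, Lamp2 rose (0.66) and Laptm5 fell (-1.18), beside 31.3% called over all tested genes. With TPM, Lamp2 was at 0.42 and no longer called (limma adjusted p = 0.23). Of 14 transcription factors linked to scavenger receptor genes, 11 were tested, 1 rose and 3 fell, a count near the share over all tested genes. The rise, that of Tfe3 (0.50), was not called with TPM (limma adjusted p = 0.39). Those that fell included Tfeb, a regulator of lysosomal genes, at -2.14, and Klf4 at -1.23. Of 10 genes of alternative activation, which Mrc1 often accompanies, 1 was tested, Il4ra, and it did not pass the threshold. Of the 10 macrophage markers, 9 were tested, 3 rose and 2 fell, beside 31.3% called over all tested genes. The largest differences were those of Cd14 (2.40), Adgre1 (1.503) and Csf1r (-1.16). Whether these marker changes have a part in the receptor values was not tested.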

How the data were processed

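RNA-seq values of 9 RAW264.7 libraries (3 control, 3 LPS, 3 LPS + G-CDs) were used. The authors deposited FPKM values per gene and library with gene coordinates and lengths, and 0 columns of values belonged to other samples. The aligner and counter are not given in the sources used here, the submitters' processing notes name the builds GRCm38 and mm10, and the coordinates equaled those of GENCODE release M21 for 53548 of the 54495 genes found there. FPKM times gene length came out as whole multiples of 1 read, within 0.05 reads, for 100.0% of values, which returned the reads behind them. The library size behind FPKM was 1.11 to 1.14 times the reads on genes in control, 0.929 to 0.936 times in LPS and 0.88 to 0.98 times in LPS + G-CDs libraries, so the deposited values hold a scaling between libraries.

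Genes that reached an FPKM of 1 in 3 or more libraries were fitted as log2(FPKM + 1) with limma 3.58.1 in R 4.3.3 (1 model of 3 groups, eBayes with a mean-variance trend, two-sided, Benjamini-Hochberg adjustment over all tested genes, threshold 0.05). The log2 scale understates changes of low genes. Floors cover counting error only. Tables were prepared with Python 3.11.15 and pandas 2.3.3, and the test was tested on simulated data. The simulation used the same spread in all groups, unlike these libraries, and changed genes between LPS and control only. It therefore does not cover the comparison of LPS + G-CDs with LPS.

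The 8 genes, the lists and the tests were chosen with earlier results of these data known. All 8 were described. From each list, genes past the threshold between LPS + G-CDs and LPS were named, and the 3 largest past it between LPS and control, and for each called receptor the 3 genes most like it. Some genes of the lists are not reported here. Il4ra, Fcgr2b and Nt5dc2, and the motifs searched, were named or chosen after values were seen. Alternatives were another pseudocount (0.1), no filter or a stricter one (FPKM of 5), TPM, median-of-ratios scaling, removal of the gene-length trend, the 6 libraries of a comparison alone, no variance trend, voom on reads, each library left out in turn, and a block for the replicate number. Neither labels nor methods say what a replicate number stands for. Deviations of same-numbered LPS and control libraries correlated at 0.103, 0.137 and 0.113, all above 0.1, so the numbers were taken to pair those groups.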

Additional observations from a re-analysis of the deposited data

How the results depend on the processing

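Directions of the 4 tested receptors held in all comparisons and in each alternative that tested them (Cd36 was not tested under the filter at an FPKM of 5), except Scarb1 between LPS + G-CDs and LPS after removal of the gene-length trend (0.0067); the cause was not tested. Of the 4 calls between LPS and control, those of Msr1 and Scarb2 held in 20 of 20 alternatives, that of Cd36 in the 19 that tested it and that of Scarb1 in 14 of 20. Between LPS + G-CDs and LPS, the 57 genes called became 25 with a pseudocount of 0.1, 27 with TPM, 98 after removal of the gene-length trend, 25 with the 6 libraries alone and 10 to 276 with 1 library left out (276 without LPS + G-CDs replicate 1). The receptors called there went from 1 to 0 with that pseudocount, with TPM and after removal of the length trend, and to 0 to 1 with 1 library left out. Between LPS + G-CDs and control, the 2927 genes became 1811 with the 6 libraries alone, where fewer samples enter, and 1916 to 3247 with 1 library left out (1916 without LPS + G-CDs replicate 2).

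TPM moved the median log2 difference of all genes to -0.23 (LPS against control), -0.14 (LPS + G-CDs against LPS) and -0.38 (LPS + G-CDs against control), and the calls to 1003 higher and 3059 lower, 16 and 11, and 761 and 3218, against 1827 and 1803, 29 and 28, and 1488 and 1439. Msr1 was then at 3.16, -1.13 and 2.03, and relative to those medians it stayed on the same side. Scarb1 moved to -0.75 with LPS and to -1.14 with LPS + G-CDs against control, and Scarb2 to -1.36 and -1.18. Cd36, which is low, moved to 1.88 and 2.13 against control with voom on reads. Among the listed genes, TPM also ended calls that include those of Soat1, Lamp2, Tfe3 and Itgam between LPS and control, and no called one changed direction under TPM, median-of-ratios scaling or removal of the length trend.

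With the replicate number as a block, 4104 genes were called between LPS and control, 53 between LPS + G-CDs and LPS and 3347 between LPS + G-CDs and control, and no receptor's call changed. For the last pair of comparisons the numbers do not pair the libraries by the limit used, since same-numbered deviations correlated at 0.095, 0.080 and 0.143, and at 0.280, 0.057 and 0.653. Each LPS + G-CDs library correlated best with the LPS library of its own number, but LPS + G-CDs replicate 1 correlated best with control replicate 2 (0.504). With at most 19 reads per library, depth limits what can be said of Mrc1, Olr1 and Marco.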
